A study of Mus musculus with 12 samples.

Results

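MHC class II antigen presentation was followed in mouse liver through 7 genes, H2-Aa, H2-Ab1, H2-Eb1, Cd74, Ciita, H2-DMa and Ctss, chosen as steps of the pathway. Each of the 7 was represented by 1 probe set annotated to that gene alone, and they are 7 of the 19938 genes tested. Class II molecules are pairs of an alpha and a beta chain that carry peptides from endocytosed proteins to the cell surface, where CD4+ T cells read them. In liver they are made mainly by Kupffer cells (the resident macrophages), dendritic cells and B cells, and at lower levels by the endothelium of the sinusoids, and hardly by hepatocytes. Ciita encodes the coactivator that switches the pathway on, is itself induced by interferon gamma in many cells, and acts on the promoters of the chain genes, of Cd74 and of H2-DMa.

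RNA of whole liver was hybridised to 12 Affymetrix arrays, 3 for each of 4 groups of 129Sv mice at an age of 12 weeks. Control mice carried the wild-type Sirt3 gene (SIRT3WT in the labels), and SIRT3KO mice lacked SIRT3, a deacetylase of the mitochondrion. Each genotype received either a standard diet or, from weaning, a Western diet high in fat (42%). Every animal had gone without food for 24 h when the liver was taken. The promoter or construct behind the knockout, the sex of the mice and the time of day are not given in the sources used here.

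Values are log2 expression values made by the authors with RMA, and a difference of 1 is a 2-fold change. Array medians lay between 6.34 and 6.47, and the number of arrays limits the precision. Hepatocyte markers fitted the labelled tissue, with Alb (albumin) between 14.05 and 14.16 and Apoa1 between 14.06 and 14.22 on the 12 arrays. The Sirt3 signal ran from 8.83 to 8.95 in SIRT3KO against 8.97 to 9.13 in Control on the standard diet, and from 8.49 to 8.92 against 9.13 to 9.29 on the high-fat diet. The position of its probes relative to the deleted part is not given in the sources used here, so this signal does not check the genotype. The diets were not handled alike up to the deposited table, because 335 probe sets had a value on every high-fat array and on no standard-diet array. Diet and processing therefore cannot be told apart in a comparison of diets, whereas the genotypes are compared within a diet. The labels do not say outright that each array is a separate mouse, so the p-values measure the spread between these samples. In whole liver, fewer cells of a type and less RNA per cell cannot be told apart.

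Promoters of H2-Aa, H2-Eb1 and Ctss are shown, taken from RefSeq (GRCm38.p6). Each window runs from 250 bases before to 50 after the start site, 5′ to 3′ on the gene's strand. A link between these sequences and the expression values was not tested. Class II promoters are known for an X box, bound by the RFX complex, followed by a Y box, bound by NF-Y, and CIITA is recruited to this assembly. H2-Aa (chr17:34287774-34288073, minus strand) and H2-Eb1 (chr17:34305617-34305916, plus strand) lie in the H2 complex, and the capitals mark GCAAC, a core of the X box, and GATTGG, the Y box. Ctss (chr3:95526536-95526835, plus strand) lies elsewhere and is shown with the capitals on GAAA, any 2 bases and GAAA again, a core of the interferon-stimulated response element.
H2-Aa: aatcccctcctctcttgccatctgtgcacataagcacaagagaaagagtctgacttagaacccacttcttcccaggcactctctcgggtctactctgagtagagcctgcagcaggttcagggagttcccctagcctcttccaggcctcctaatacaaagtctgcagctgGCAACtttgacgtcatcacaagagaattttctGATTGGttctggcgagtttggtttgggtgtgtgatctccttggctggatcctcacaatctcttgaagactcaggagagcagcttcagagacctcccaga
H2-Eb1: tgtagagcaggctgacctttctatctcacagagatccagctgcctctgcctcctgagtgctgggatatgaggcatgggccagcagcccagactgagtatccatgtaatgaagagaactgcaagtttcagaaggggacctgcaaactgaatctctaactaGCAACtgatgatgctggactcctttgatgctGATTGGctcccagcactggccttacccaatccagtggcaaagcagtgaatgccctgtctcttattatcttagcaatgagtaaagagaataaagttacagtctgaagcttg
Ctss: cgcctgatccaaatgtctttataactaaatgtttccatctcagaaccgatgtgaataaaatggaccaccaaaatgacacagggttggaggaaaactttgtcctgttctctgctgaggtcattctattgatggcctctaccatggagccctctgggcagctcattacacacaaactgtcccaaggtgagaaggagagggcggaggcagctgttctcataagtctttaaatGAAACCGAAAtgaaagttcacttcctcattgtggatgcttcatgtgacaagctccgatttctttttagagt
In H2-Aa, GCAAC began at position -81 from the start site and GATTGG 32 bases further on, at -49. In H2-Eb1 they began at -91 and -60, 31 bases apart. Both strands were searched, and GCAAC was followed by GATTGG at 20 to 40 bases in 0.365% of 32851 promoter windows, while GCAAC alone was in 35.2% and GATTGG alone in 16.1%. H2-Eb1 held a further GATTGG on the other strand at -35. H2-Aa held the CREB site TGACGTCA at -74, a site found in 1.79% of windows. It lay between the capitals of GCAAC and GATTGG and overlapped neither, and GCAAC is only a core of the X box. In Ctss the interferon element began at -21, and 3.44% of windows held it. Promoter windows were found for 4 of the 7 genes. Neither of the 2 windows of H2-DMa held GCAAC followed by GATTGG at 20 to 40 bases. H2-Ab1, Cd74 and Ciita were not matched. The motifs were written after the sequences had been seen, and a match describes letters, not a bound site.

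The pattern that ran through all 7 genes was 1 array, Control high-fat replicate 3. Every gene of the pathway had its highest value of the 12 arrays there, and the gap to the mean of replicates 1 and 2 of the same group ran from 0.458 for Ciita to 1.13 for Cd74. In all, 7.93% of the 19938 genes were highest of 12 on this array, and 1.45% stood at least 0.5 above the mean of the other arrays of the group, as 6 of the 7 did. Since this array was known to stand apart when the genes were chosen, its gap is a description with no test. The tests of the 7 genes that use it are given with and without it.

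**Figure D1:**
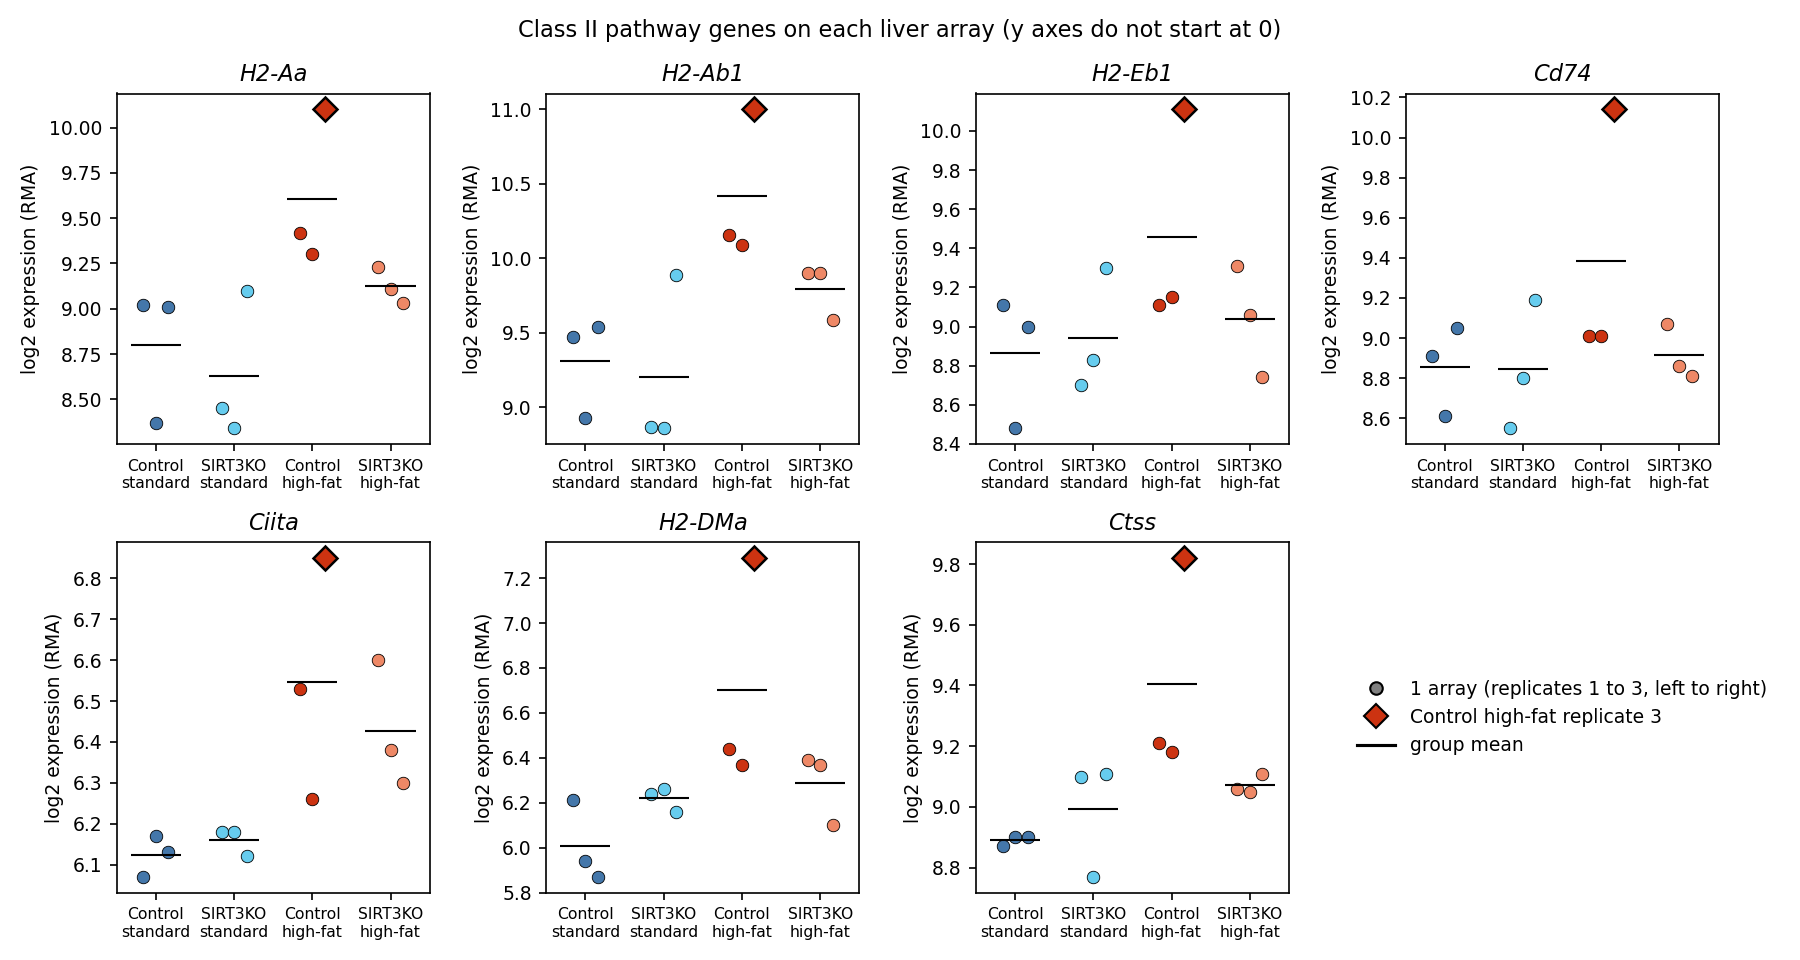
Log2 expression (RMA, y axis) of the 7 class II pathway genes on each array, by group of genotype and diet (x axis), with replicates 1 to 3 from left to right, bars at the group means and a diamond for Control high-fat replicate 3. The diamond is the highest point in all 7 panels, from 6.85 for Ciita to 11.00 for H2-Ab1.

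Ciita, the coactivator, read 6.07, 6.17 and 6.13 in Control and 6.18, 6.18 and 6.12 in SIRT3KO on the standard diet, and 6.53, 6.26 and 6.85 in Control and 6.60, 6.38 and 6.30 in SIRT3KO on the high-fat diet. The genotypes overlapped on both diets, and all 6 high-fat arrays lay above all 6 standard-diet arrays. That order between the diets was shared by 4.79% of genes.

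H2-Aa, the alpha chain of the class II molecule H2-A, read 9.02, 8.37 and 9.01 in Control and 8.45, 8.34 and 9.10 in SIRT3KO on the standard diet, and 9.42, 9.30 and 10.10 against 9.23, 9.11 and 9.03 on the high-fat diet. H2-Ab1, the beta chain of the same molecule, read 9.47, 8.93 and 9.54 against 8.87, 8.86 and 9.89 on the standard diet, and 10.16, 10.09 and 11.00 against 9.90, 9.90 and 9.59 on the high-fat diet. For both chains the genotypes overlapped on the standard diet, with SIRT3KO replicate 3 the highest array of its group, and all 3 Control arrays lay above all 3 SIRT3KO arrays on the high-fat diet. H2-Eb1, the beta chain of H2-E, read 9.11, 8.48 and 9.00 against 8.70, 8.83 and 9.30 on the standard diet, and 9.11, 9.15 and 10.11 against 9.31, 9.06 and 8.74 on the high-fat diet. Its genotypes overlapped on both diets. The alpha partner of H2-E, H2-Ea, is not made in mice of the b haplotype of the H2 complex, which 129Sv mice carry. Its probe set stayed between 4.14 and 4.60 on the 12 arrays.

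Cd74, the invariant chain that holds new class II molecules until they reach the endosome, read 8.91, 8.61 and 9.05 against 8.55, 8.80 and 9.19 on the standard diet, and 9.01, 9.01 and 10.14 against 9.07, 8.86 and 8.81 on the high-fat diet. Apart from Control replicate 3, the high-fat arrays lay within the range of the standard-diet arrays. Ctss, cathepsin S, the protease that cuts the last part of the invariant chain away, read 8.87, 8.90 and 8.90 against 9.10, 8.77 and 9.11 on the standard diet, and 9.21, 9.18 and 9.82 against 9.06, 9.05 and 9.11 on the high-fat diet. H2-DMa, the alpha chain of the editor H2-DM that swaps the remaining fragment for peptide, read 6.21, 5.94 and 5.87 against 6.24, 6.26 and 6.16 on the standard diet, and 6.44, 6.37 and 7.29 against 6.39, 6.37 and 6.10 on the high-fat diet. Ctss in Control was nearly level on the standard diet (SD 0.0152, n = 3), and all 3 Control arrays lay above all 3 SIRT3KO arrays on the high-fat diet, while H2-DMa overlapped between the genotypes on both diets.

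The class II chains and Cd74 also moved together on arrays other than Control high-fat replicate 3. Measured from the group means, the mean of H2-Aa, H2-Ab1, H2-Eb1 and Cd74 stood at 0.46 on SIRT3KO standard-diet replicate 3, where each of the 4 was highest of its group, and at -0.36 on Control standard-diet replicate 2, where each was lowest. Ctss was also highest on SIRT3KO standard-diet replicate 3, by a smaller margin, whereas Ciita and H2-DMa were lowest there. The deviations on SIRT3KO standard-diet replicate 3 were -0.04 for Ciita, -0.06 for H2-DMa and 0.11 for Ctss. On Control standard-diet replicate 2 they were 0.05, -0.07 and 0.01 in the same order. Expressed as the root mean squared difference from that 4-gene mean over the 12 arrays, H2-Eb1 (0.0701), H2-Aa (0.0706), H2-Ab1 (0.0874) and Cd74 (0.0912), which are part of the mean, were closest, followed by Ctss (0.224), H2-DMa (0.226) and Ciita (0.261). A gene with no variation within groups would have scored 0.31. Over the 11 arrays without Control high-fat replicate 3 such a gene would have scored 0.229. Ctss (0.222), H2-DMa (0.236) and Ciita (0.246) lay near that score, while H2-Aa (0.057), H2-Eb1 (0.0723), Cd74 (0.082) and H2-Ab1 (0.0902) stayed well below it.

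Whether loss of SIRT3 altered the pathway on the standard diet was asked first. None of the 7 genes was called by limma at an adjusted p under 0.05, none had an unadjusted p under 0.05, and 0.00502% of all genes were called. The largest difference was that of H2-DMa (0.21, SE 0.19, 95% interval -0.20 to 0.61, limma adjusted p = 0.715), and the median over the 7 was 0.04, as over all genes. H2-Ab1 differed by -0.11 with an interval from -0.69 to 0.47, and Ciita by 0.04 with an interval from -0.24 to 0.31. The widest intervals among the chain genes reached -0.69 for H2-Ab1 and 0.60 for H2-Eb1, so differences up to that size lay within the intervals.

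On the high-fat diet all 7 genes had lower means in SIRT3KO than in Control, and none was called by limma (each adjusted p = 1), where 0% of all genes were called. The median difference was -0.42 against -0.02 over all genes, and 56.9% of all genes were lower. H2-Ab1 was 10.42 (SD 0.508, n = 3) in Control and 9.79 (SD 0.179, n = 3) in SIRT3KO, a difference of -0.62 (SE 0.271, 95% interval -1.20 to -0.04). H2-Aa stood at -0.48, Cd74 at -0.47, H2-Eb1 and H2-DMa at -0.42, Ctss at -0.33 and Ciita at -0.12. At an unadjusted p under 0.05 were 3 of the 7, H2-Ab1, H2-DMa and Ctss, against 2.86% of all genes, and 3 had groups that did not overlap, H2-Aa, H2-Ab1 and Ctss, against 4.27% of all genes in that direction.

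Without Control high-fat replicate 3 the differences between the genotypes shrank in all 7 genes, and Ciita changed sign. H2-Ab1 then stood at -0.33 (SE 0.259, 95% interval -0.89 to 0.23), H2-Aa at -0.24, H2-DMa and Ctss at -0.12, Cd74 at -0.10, H2-Eb1 at -0.09 and Ciita at 0.03. The median of the 7 was -0.12 against -0.03 over all genes, and limma called none of the 7 (0.00502% of all genes). The arrays of H2-Aa, H2-Ab1 and Ctss still did not overlap, as in 14.1% of all genes with 2 Control arrays.

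**Figure D2:**
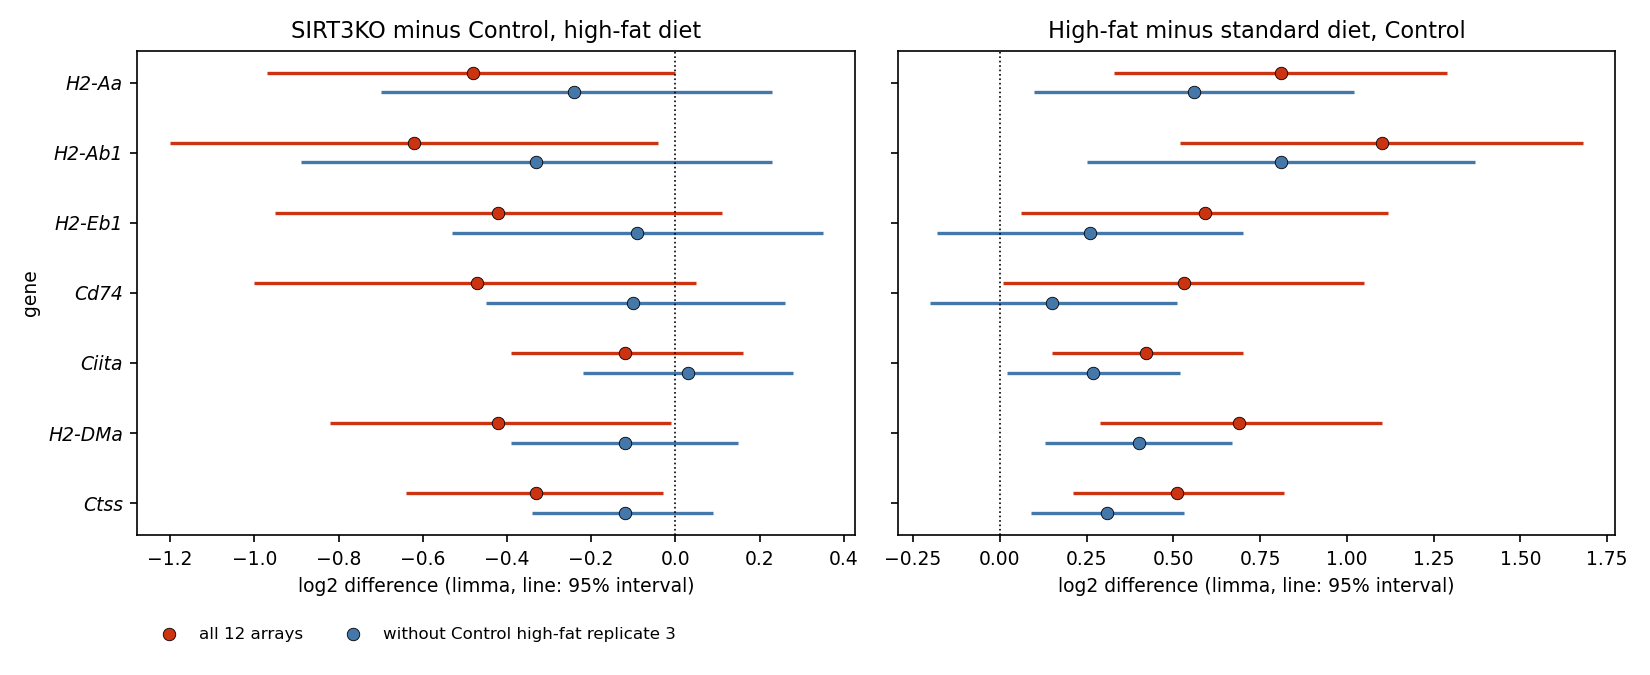
Log2 difference (x axis) of each gene (y axis) with its 95% limma interval, between the genotypes on the high-fat diet (left) and between the diets in Control (right), with all 12 arrays (red) and without Control high-fat replicate 3 (blue). Leaving out that array moves all 7 points towards 0 on the right, from 1.10 to 0.81 for H2-Ab1, and on the left Ciita passes to 0.03.

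Between the diets, the Control livers had higher means of all 7 genes on the high-fat diet, and limma called 4 of them. H2-Ab1 rose 2.15-fold (1.10, SE 0.271, limma adjusted p = 0.0302), H2-Aa 1.75-fold (0.81, SE 0.226, limma adjusted p = 0.0489), H2-DMa 1.62-fold (0.69, SE 0.19, limma adjusted p = 0.0458) and Ctss 1.43-fold (0.51, SE 0.142, limma adjusted p = 0.0475). H2-Eb1 (0.59), Cd74 (0.53) and Ciita (0.42) did not pass. The background for this comparison was 5.99% of genes called, made up of 4.3% of all genes called higher and 1.69% called lower, and the 4 adjusted p-values lie close to the threshold. Groups did not overlap for 6 of the 7 genes, all but Cd74, against 19.4% of all genes in that direction. The median difference was 0.59 against 0.04 over all genes.

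These calls did not hold without Control high-fat replicate 3, when none of the 7 was called and 4.2% of all genes were. H2-Ab1 then stood at 0.81 (SE 0.259, limma adjusted p = 0.092) and H2-Aa at 0.56 (adjusted p = 0.15), while H2-DMa moved from 0.69 to 0.40 (adjusted p = 0.0894) and Ctss from 0.51 to 0.31 (adjusted p = 0.105). H2-Eb1 stood at 0.26, Ciita at 0.27 and Cd74 at 0.15. The median of the 7 was 0.31 against 0.05 over all genes. The calls also ended without Control high-fat replicate 1 or without any of the 3 Control standard-diet arrays, where none was left, and without any of the 3 SIRT3KO high-fat arrays H2-Ab1 alone was left.

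In SIRT3KO all 7 genes again had higher means on the high-fat diet, and limma called none of them, where 5.11% of all genes were called (2.45% higher and 2.66% lower). The median of the 7 was 0.09 against -0.01 over all genes. H2-Ab1 stood at 0.59 (SE 0.271, limma adjusted p = 0.222) and H2-Aa at 0.50 (SE 0.226, limma adjusted p = 0.217). These 2 of the 7 had an unadjusted p under 0.05, as did 21.6% of all genes. Ciita stood at 0.27, with all 3 high-fat arrays above all 3 standard-diet arrays as in 10.6% of genes. H2-Eb1, Ctss, Cd74 and H2-DMa lay between 0.07 and 0.09. Without SIRT3KO standard-diet replicate 3, H2-Ab1 rose by 0.93 (limma adjusted p = 0.0335) and was the only call among the 7.

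The test of the difference itself, the diet effect in SIRT3KO minus that in Control, called none of the 7 genes, and 0% of all genes. H2-DMa (-0.62, SE 0.268) and Ctss (-0.44, SE 0.201) had an unadjusted p under 0.05, both with a limma adjusted p of 0.945, and 4.73% of all genes passed the same unadjusted threshold. Without Control high-fat replicate 3 they stood at -0.33 and -0.23, and H2-Ab1 moved from -0.51 to -0.22. The same Control high-fat arrays enter this test, the genotype comparison on the high-fat diet and the diet comparison in Control.

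The chains of H2-A were also set against the invariant chain of the same array. The value of H2-Ab1 minus that of Cd74 ran from 0.06 to 0.70 on the 6 standard-diet arrays and from 0.78 to 1.15 on the 6 high-fat arrays, so the diets did not overlap, and Control high-fat replicate 3 stood at 0.86 among the rest. H2-Aa minus Cd74 ran from -0.46 to 0.10 and from -0.04 to 0.41, with a mean shift of 0.35 against 0.55 for H2-Ab1. H2-Eb1 minus Cd74 ran from -0.12 to 0.20 and from -0.06 to 0.24, with a mean shift of 0.04. A set of 6 high-fat arrays all above 6 standard-diet arrays after subtraction of Cd74 was found in 0.0201% of genes, and all below in 1.35%. Cd74 was subtracted from every gene, and on Control high-fat replicate 3 it stood 1.13 above the mean of replicates 1 and 2. These shares therefore depend on that array, and they were not computed without it. The ratio to Cd74 was chosen after the values were seen and carries no test. It shows unequal change and not which gene changed, and it is open to any difference in processing between the diets.

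**Figure D3:**
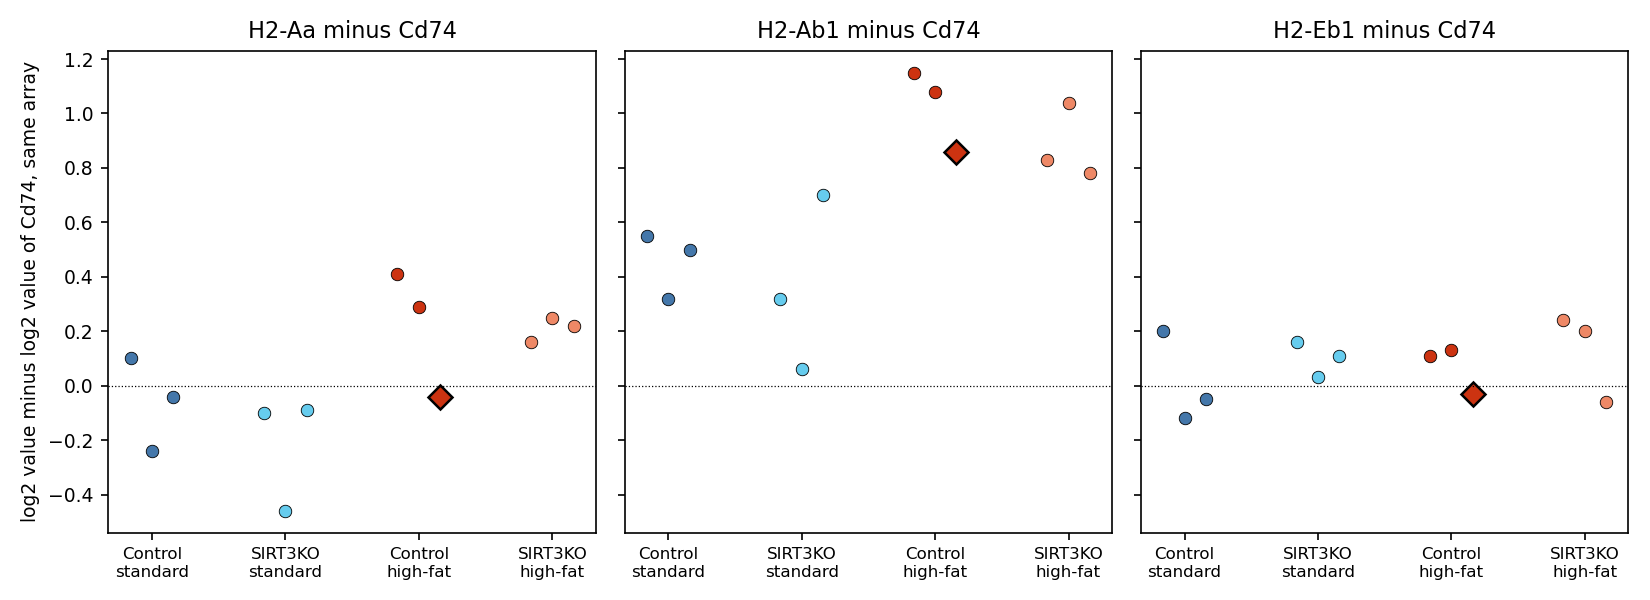
Log2 value of H2-Aa, H2-Ab1 and H2-Eb1 minus that of Cd74 on the same array (y axis), by group (x axis), with replicates 1 to 3 from left to right and a diamond for Control high-fat replicate 3. For H2-Ab1 the standard-diet points end at 0.70 and the high-fat points begin at 0.78, while for H2-Eb1 the diets overlap.

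Other genes of the pathway were followed as lists. Of 13 measured class II chains, editors, promoter factors and ubiquitin ligases (H2-Oa, H2-Ob, Rfx5, Marchf1 and others), none was called in Control between the diets (median 0.15) or between the genotypes on either diet (medians -0.03 and -0.04). Without Control high-fat replicate 3 the medians were 0.14 between the diets in Control and -0.05 between the genotypes on the high-fat diet, again with no call. Marchf8, a ligase that marks membrane proteins such as class II for degradation, rose by 0.42 in SIRT3KO on the high-fat diet (SE 0.0887, limma adjusted p = 0.0165) and was the only call. In Control between the diets Marchf8 stood at 0.27 (limma adjusted p = 0.082), or 0.32 without Control high-fat replicate 3 (adjusted p = 0.07). The RNA of H2-DMb1 and H2-DMb2, which share a probe set, was not analysed here. Of 10 endosomal proteases and partners, Ctsb, cathepsin B, was called in Control between the diets (0.33, SE 0.0891, limma adjusted p = 0.0449), with a list median of 0.02, and without Control high-fat replicate 3 it stood at 0.29 (adjusted p = 0.106). Ifi30, the thiol reductase that unfolds antigens in the endosome, stood at -0.31 between the genotypes on the high-fat diet (adjusted p = 1), and at -0.10 without Control high-fat replicate 3.

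Class I presentation is the route for peptides from the cytosol, and 14 of 16 listed genes were measured. None of the 14 encodes a class I heavy chain, the chain that holds the peptide. The 14 gave no call in Control between the diets, where the median was 0.10, or 0.05 without Control high-fat replicate 3. The chaperone Calr fell by 0.50 between the diets in SIRT3KO (SE 0.104, limma adjusted p = 0.0138). In Control, without Control high-fat replicate 3, Calr stood at -0.22 between the diets (limma adjusted p = 0.294). Of 20 genes listed for the interferon gamma response, 15 were measured. They include Ifng, its receptor genes Ifngr1 and Ifngr2 and the kinase genes Jak1 and Jak2, so the list does not hold responding genes alone. In Control between the diets 2 of the 15 were called, with a list median of 0.30. These were the chemokine Cxcl10 (0.98, SE 0.266, limma adjusted p = 0.0442) and the GTPase Gbp3 (0.76, SE 0.173, limma adjusted p = 0.0213). Without Control high-fat replicate 3 both were still called, at 0.53 and 0.51, and the list median was 0.08. Between the genotypes on the high-fat diet none of the 15 was called, with a median of -0.13 and Cxcl10 at -0.61. Without Control high-fat replicate 3 the median was -0.02 and Cxcl10 stood at -0.15. None of 8 co-stimulation genes was called in any comparison.

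Markers of the cells that carry class II were set beside these results, and their part in them was not tested. On Control high-fat replicate 3 the 16 macrophage and Kupffer cell markers had a median gap of 0.52 to the other arrays of the group, and 13 of them stood at least 0.3 higher, against 6.65% of all genes. Clec4f, a lectin found on mouse Kupffer cells, read 9.48 there against 8.81 and 8.82, C1qb, a complement subunit, 9.50 against 8.18 and 8.35, and Timd4, a receptor for dying cells, 7.97 against 7.37 and 7.53. None of the 9 B cell markers (median gap 0.05) and 2 of the 10 dendritic cell markers (0.04) stood at least 0.3 higher, and none of the 10 sinusoidal endothelial markers (-0.04), the 9 hepatocyte markers (-0.05) or the 5 bile duct markers (-0.02) did. The counts were 2 of 9 for monocyte and neutrophil markers (0.07), 2 of 11 for T and NK cell markers (0.20) and 5 of 10 for stellate cell and fibroblast markers (0.23).

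Of the interferon gamma response list, 9 of the 15 genes stood at least 0.3 higher on the same array (median 0.48). Lower there than the mean of replicates 1 and 2 were the GTPase gene Iigp1 (-0.20), Ifngr1 (-0.14), Ifngr2 (-0.08), Jak1 (-0.04) and Jak2 (-0.20). Cxcl9, a chemokine induced by interferon gamma, read 9.12 there against 6.38 and 6.60 in its group and at most 7.29 on any other array, the largest gap of the listed genes at 2.62. Cxcl10 read 7.65 against 6.22 and 6.35, and Irf1, the transcription factor that acts on the Ciita promoter, 8.28 against 7.30 and 7.56. Ifng itself read 6.36 against 6.22 and 6.29, within the range of the other 11 arrays, which reached 6.45. Ifi30 stood 0.62 higher, and of the class I genes Tap1 and Psmb10 stood 0.70 and 0.67 higher, while B2m and Nlrc5, the class I coactivator, stood at -0.10 and -0.34.

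**Figure D4:**
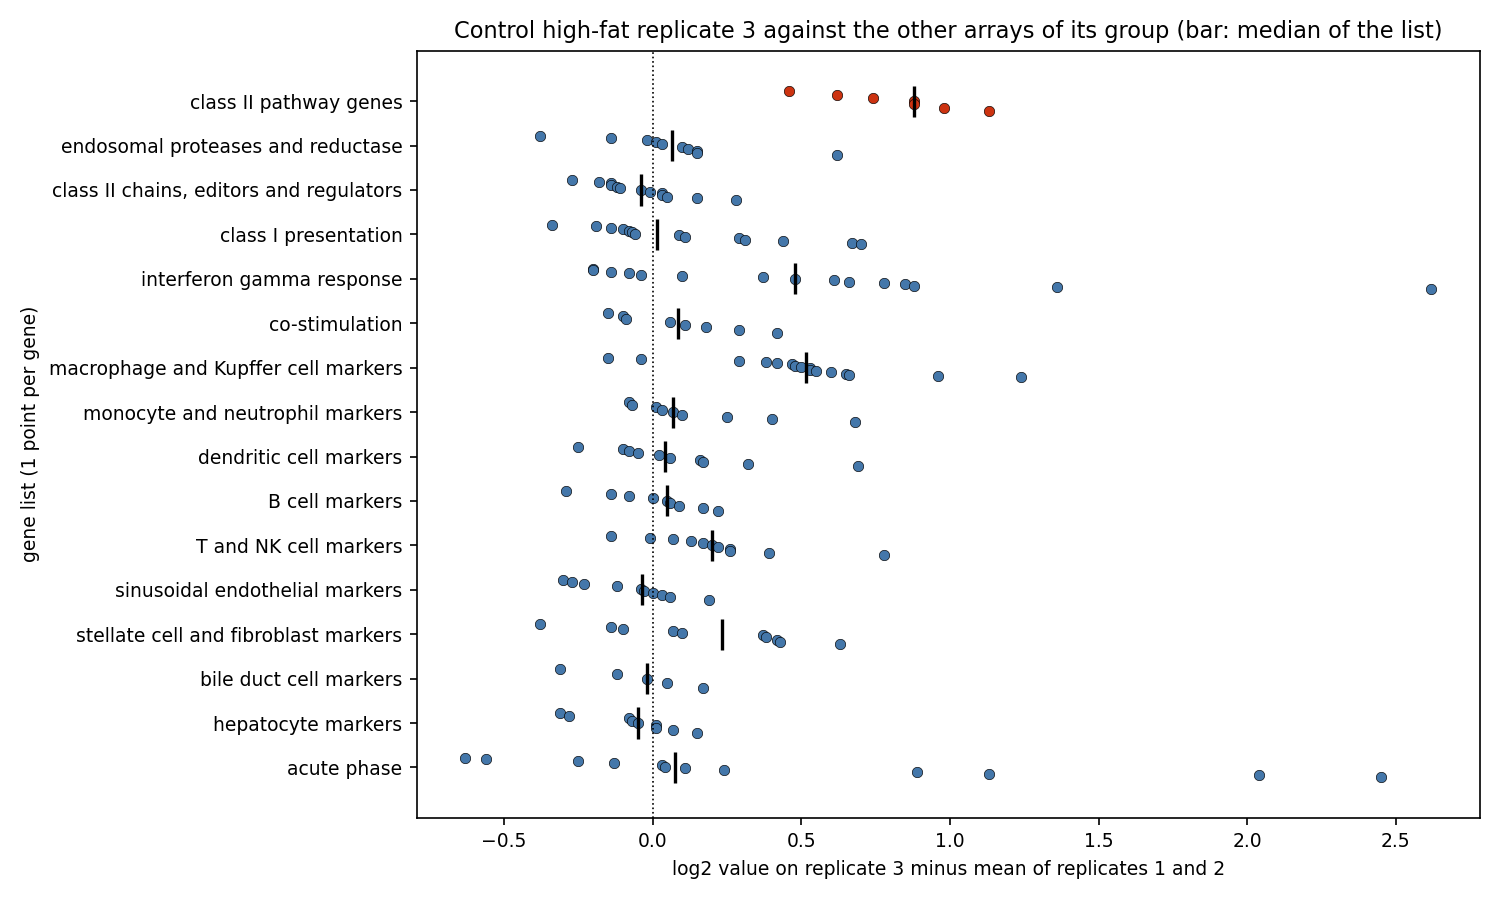
Log2 value on Control high-fat replicate 3 minus the mean of replicates 1 and 2 (x axis) for each gene of 16 lists (y axis, 1 point per gene, bar at the list median). The class II pathway genes have a median of 0.88, macrophage and Kupffer cell markers 0.52 and the interferon gamma response list 0.48, and hepatocyte markers lie near 0.

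Over all arrays the mean level of the Kupffer list ran from 8.19 to 8.39 in Control and 8.20 to 8.46 in SIRT3KO on the standard diet, and from 8.28 to 8.79 and 8.27 to 8.35 on the high-fat diet. Its order within groups was set beside that of the class II chains. On the standard diet SIRT3KO replicate 3, the highest of its group for the 4 genes of chains and Cd74, was also highest for the Kupffer list. It stood there at 8.46, with replicate 1 at 8.43. Control standard-diet replicate 2, the lowest array of its group for the same 4 genes, was the highest for the Kupffer list at 8.39. SIRT3KO high-fat replicate 1, highest of its group for the mean deviation of the 4 (0.16), was the lowest for the Kupffer list at 8.27. The B cell list ran from 5.34 to 5.41 and 5.38 to 5.59 on the standard diet, and from 5.51 to 5.65 and 5.38 to 5.63 on the high-fat diet. The dendritic list ran from 5.82 to 5.99, 5.94 to 6.12, 5.90 to 6.08 and 5.89 to 6.03 in the same order.

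Of the markers in these lists, whose sizes are given above, 10 were called higher in Control between the diets and none lower. Of all genes, 4.3% were called higher and 1.69% lower. Limma called Cd79a (0.57) and Bank1 (0.62) of the B cell list, Itgax (0.43) and Siglech (0.44) of the dendritic list, Cd3e (0.45), Klrb1c (0.74) and Ncr1 (0.90) of the T and NK cell list, and Mpeg1 (0.74), Cx3cr1 (0.70) and Stab2 (0.39) of the macrophage, monocyte and endothelial lists. The list medians were 0.21 for B cells, 0.23 for dendritic cells, 0.21 for T and NK cells, 0.16 for Kupffer cells, 0.10 for monocytes and neutrophils, 0.12 for endothelium, 0.27 for stellate cells, 0.16 for bile duct cells and -0.01 for hepatocytes. Without Control high-fat replicate 3 the Kupffer median was 0.03, the B cell, dendritic and T and NK cell medians were 0.21, 0.26 and 0.14, and the medians were 0.07 for monocytes and neutrophils, 0.09 for endothelium, 0.14 for stellate cells, 0.15 for bile duct cells and -0.03 for hepatocytes. Of the 10 genes Mpeg1 (0.54), Cx3cr1 (0.73) and Stab2 (0.49) were still called, the others were not, and the stellate cell gene Lrat was called as well (0.48, limma adjusted p = 0.0435). Clec10a, a lectin of the dendritic list, went the other way in Control, at -0.74 (limma adjusted p = 0.12), or -0.97 without that array (adjusted p = 0.07). In SIRT3KO between the diets Clec10a fell (-1.20, SE 0.271, limma adjusted p = 0.0215), Ncr1 rose by 0.73 (limma adjusted p = 0.0499) and Stab2 rose by 0.41 (limma adjusted p = 0.0322), the only marker genes called there. The Kupffer list had a median of -0.16 between the genotypes on the high-fat diet, and of 0.01 without Control high-fat replicate 3. Between the genotypes none of the marker genes was called on either diet.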

How the data were processed

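The authors deposited log2 expression values for 35557 probe sets, which the submitters' processing notes credit to Affymetrix Expression Console and RMA. Versions, options and genome build are not given in the sources used here. The platform annotation gave 1 gene symbol for 21789 of them, several for 1621, and did not list 12147, which are unnamed here. A gene with more than 1 probe set was represented by the brightest, leaving 19938 genes. No further normalization was applied. The 4 group means were estimated jointly in limma 3.58.1 (R 4.3.3), moderating variances along an intensity trend. Calls required an adjusted p under 0.05, by the method of Benjamini and Hochberg across the 19938 genes. In data simulated for the genotype comparison on the high-fat diet with 19938 genes, 50.7% of changes of 0.5, 97% of changes of 1 and 100% of changes of 2 (log2) were recovered. The changed genes were drawn at random from all genes, whose median SE in the real comparison was 0.114. The SEs of the 7 genes there ran from 0.129 for Ciita to 0.271 for H2-Ab1, so these rates do not carry over to them. The 7 genes and the lists were chosen with earlier results of these data known. Of each list, up to 4 called genes per comparison, or otherwise the 2 of smallest p, could be named, and genes named for Control high-fat replicate 3 were chosen after their values were seen. Alternatives were other moderation settings, array weights, the compared groups alone, the replicate number as a block, quantile normalization, median centring, all probe sets, a minimum mean of 5, an adjusted p under 0.1, and leaving out arrays. Probe sets with several symbols were left out. Promoters came from RefSeq, and figures were drawn with matplotlib 3.10.9.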

Additional observations from a re-analysis of the deposited data

How the results depend on the processing

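The number of arrays limits what could be called, and the adjusted p-values of the diet comparison in Control lay near the threshold. Of the 7 genes, 4 were called there with the settings of the report, 2 without the intensity trend and also 2 with robust moderation, 1 each with the compared groups alone, quantile normalization or a minimum mean of 5, and 0 each with median centring, all probe sets, or without SIRT3KO standard-diet replicate 1 and Control high-fat replicate 3 together. Array weights kept all 4 called, and at an adjusted p under 0.1 Ciita (limma adjusted p = 0.0675) passed as well. Leaving out each array gave 0 to 5 calls. With the replicate number as a block 3 were called (H2-Aa, H2-Ab1 and Ctss). Same-numbered arrays of different groups deviated together in 5 of 18 pairs at a correlation over 0.1 (-0.271 to 0.407). Arrays with different numbers were not compared, so this does not settle whether the numbers pair the samples. In SIRT3KO between the diets, leaving out each array gave 0 to 1 calls. The genotype comparisons and the interaction kept 0 of 7 under every alternative run. All 7 differences in Control between the diets stayed above 0 under every alternative.

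Signs turned for small differences. Between the genotypes on the standard diet, Cd74 (-0.01) was 0.04 with quantile normalization and 0.14 with both arrays left out, Ciita (0.04) was -0.06 and -0.04 with quantile normalization and median centring, H2-Eb1 (0.08) was -0.00 with median centring, and H2-Ab1 (-0.11) was 0.06 with both arrays left out. Without 1 array these ran from -0.18 to 0.14 for Cd74, from -0.11 to 0.20 for H2-Eb1 and from -0.45 to 0.06 for H2-Ab1. On the high-fat diet Ciita (-0.12) was 0.03 with both arrays left out and ran from -0.26 to 0.03 without 1 array. Between the diets in SIRT3KO, H2-Eb1 (0.09) was -0.03 and Cd74 (0.07) -0.08 with both arrays left out, and without 1 array H2-Eb1 ran from -0.04 to 0.27, Cd74 from -0.08 to 0.24 and Ctss from -0.03 to 0.13. The interaction of Ciita (-0.16) was 0.01 with both arrays left out. The cause was not tested.

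Counts over all genes moved more. In Control between the diets 1194 became 2740 with array weights, 582 with all probe sets and 2214 at an adjusted p under 0.1, and in SIRT3KO 1018 became 1764, 498 and 1926, with 381 for the compared groups alone, 1532 with quantile normalization and 625 with both arrays left out. Without 1 array they reached down to 389 and 360. The standard-diet genotype count of 1 ran from 0 to 6, the high-fat count of 0 reached 1, and the interaction count of 0 reached 1.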

Other observations

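Acute-phase genes, the secreted liver proteins that rise in inflammation, followed the class II genes on some arrays and not on others. Their mean over 12 genes was highest on SIRT3KO standard-diet replicate 1, at 12.18 against 9.75 to 10.52 on the other 11 arrays, and the 7 class II genes had a mean of 8.01 there, within the 8.00 to 8.41 of its group. On Control high-fat replicate 3, where the class II mean was 9.33, the acute-phase mean was 10.45, also the highest of its group, against 9.82 and 10.18. Saa2 and Lcn2, both induced in inflamed liver, stood 2.45 and 2.04 above the other arrays of that group, while Orm1 and Apcs stood at -0.63 and -0.56. On SIRT3KO high-fat replicate 3 the acute-phase mean was 10.52, the highest of its group, and the class II mean was 8.24, the lowest.

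Of 16913 other named genes, those whose deviations from the group means lay closest to the mean of H2-Aa, H2-Ab1, H2-Eb1 and Cd74 over the 12 arrays were Ggnbp2os, Klf10, Gngt2, Tmsb4x, Ms4a6c, Ttll8, F2rl3 and Rgs1, with root mean squared differences from 0.16 to 0.201. On Control high-fat replicate 3 Tmsb4x, which encodes an actin-binding peptide, deviated by 0.728, Klf10 by 0.435 and Ms4a6c by 0.415. The ranking used this array, so high values there follow in part from the selection. Over the 11 arrays without it the 8 closest were Ces1e, Myef2, Cyp2j9, Gstm6, Zfp945, S100pbp, Cenpl and Id1, with differences from 0.106 to 0.126, and 0 genes were shared by both sets.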
